A study of Homo sapiens with 18 samples.

Results

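GR binding regions (GBR) of cells depleted of Hic-5 were compared with those of cells that kept it. Of the 9533 GBR called after Hic-5 depletion (siHic5/siNS), 7059 (74.0%, 95% Wilson interval 73.2 to 74.9%) had no overlapping GBR in control cells (siNS/siNS) and are called gained GBR here. The other 2474 overlapped a control GBR by at least 1 bp and are called shared. Of the 2582 control GBR, 82 (3.18%, interval 2.57 to 3.92%) had no counterpart after Hic-5 depletion and are called control-only. All intervals cover counting error only. The 6 lists of the series hold 20642 GBR in all.

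The study measured occupancy of the glucocorticoid receptor (GR) by ChIP-seq in U2OS-GRα cells, an osteosarcoma cell line that was stably transfected with GRα. Every dish received a pair of siRNAs for 48 h and then 100 nM dexamethasone (dex, a synthetic glucocorticoid) for 1 h. The siNS/siNS cells received nonspecific siRNA in both positions, and the siHic5/siNS cells received siRNA against Hic-5 together with nonspecific siRNA. Each combination had 2 GR ChIP libraries from different days and 1 input library, and the authors combined both ChIP libraries into 1 list of GBR, which leaves 1 value per condition without a replicate error. Every test below compares sites, not replicated conditions. The lists hold no read counts, so the depth behind a site is unknown. A site that is absent from a list was not called there, which does not mean that GR was absent. The study also compared the replicates' signal at each site statistically, with a fold-change limit. By that measure it classed only part of the GBR called after Hic-5 depletion alone as blocked by Hic-5. It reported a general rise in GR signal at GBR after the depletion. Those values were not used here, so a gained GBR is a difference in calls.

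GR is a nuclear receptor that enters the nucleus on binding a glucocorticoid and regulates genes from DNA elements, mostly distal, that often hold a glucocorticoid response element (GRE), a pair of inverted half-sites bound by a GR dimer. Hic-5, encoded by TGFB1I1, is a LIM-domain protein of the paxillin family that resides at focal adhesions and also acts in the nucleus as a coregulator of steroid receptors. Which sites GR occupies depends on chromatin that is already open or that is opened with the help of remodelers, and on partner factors such as AP-1.

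The DNA at the strongest gained and control-only summits is given to show what lay under these GBR. Each stretch covers 101 bp centered on the summit, on the plus strand of GRCh38, and is named by the protein-coding gene with the nearest transcription start site (TSS). Capitals mark every 13-bp stretch that carried at least 7 of the 8 fixed letters of the GRE consensus GNACANNNTGTNC, which reads the same on both strands, and every match to the AP-1 consensus TGACTCA on either strand. The 5 strongest gained GBR were these:
SKI chr1:2255465-2255565: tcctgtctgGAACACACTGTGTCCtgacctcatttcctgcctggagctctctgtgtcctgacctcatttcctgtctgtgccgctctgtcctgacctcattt
MRPL14 chr6:44058785-44058885: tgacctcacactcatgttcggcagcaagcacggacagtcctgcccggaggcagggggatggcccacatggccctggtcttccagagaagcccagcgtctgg
FGR chr1:27631281-27631381: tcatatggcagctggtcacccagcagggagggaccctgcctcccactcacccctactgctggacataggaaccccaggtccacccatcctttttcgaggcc
FNDC3A chr13:48954237-48954337: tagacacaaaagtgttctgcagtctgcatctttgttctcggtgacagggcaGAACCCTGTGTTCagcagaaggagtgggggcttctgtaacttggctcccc
RHOB chr2:20424770-20424870: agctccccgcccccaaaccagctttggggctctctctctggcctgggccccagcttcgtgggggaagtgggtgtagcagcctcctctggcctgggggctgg

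Of the strongest gained GBR with a summit within 1 kb of a TSS, 3 were these:
ARMC8 chr3:138188202-138188302: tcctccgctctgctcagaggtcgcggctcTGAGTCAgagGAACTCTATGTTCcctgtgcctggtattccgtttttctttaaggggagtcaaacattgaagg
EDN3 chr20:59300079-59300179: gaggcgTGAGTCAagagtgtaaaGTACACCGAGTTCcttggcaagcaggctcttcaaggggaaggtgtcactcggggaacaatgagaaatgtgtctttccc
OLAH chr10:15043775-15043875: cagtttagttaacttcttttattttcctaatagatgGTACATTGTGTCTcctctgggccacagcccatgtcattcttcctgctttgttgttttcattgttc

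The 3 strongest control-only GBR were these:
MEX3B chr15:81878471-81878571: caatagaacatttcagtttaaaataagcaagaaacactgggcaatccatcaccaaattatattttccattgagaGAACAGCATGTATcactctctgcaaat
CFAP95 chr9:69861194-69861294: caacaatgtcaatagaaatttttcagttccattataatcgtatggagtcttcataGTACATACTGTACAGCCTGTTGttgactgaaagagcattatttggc
KCND3 chr1:112027385-112027485: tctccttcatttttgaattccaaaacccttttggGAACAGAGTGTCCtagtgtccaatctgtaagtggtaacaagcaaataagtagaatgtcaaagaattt

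None of the 5 strongest gained summits carried the full GRE consensus in these 101 bp. The SKI and FNDC3A sites held a stretch with 7 of its 8 fixed letters, 33 and 7 bp from the summit. No such stretch was found at the MRPL14, FGR and RHOB sites. All 3 promoter sites held one within 21 bp of the summit, and those at ARMC8 and EDN3 also held an AP-1 match. The control-only sites near CFAP95 and KCND3 carried all 8 letters. At SKI and CFAP95 the capitals join 2 stretches that overlap.

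Over all sites, the full GRE consensus occurred within the 200 bp around the summit at 991 of 7059 gained GBR (14.0%, 13.2 to 14.9%), at 687 of 2474 shared GBR (27.8%, 26.0 to 29.6%) and at 15 of 82 control-only GBR (18.3%, 11.4 to 28.0%). Windows of the same length placed 5 kb to the left held it in 0.198% of cases for gained and 0.445% for shared GBR. With 7 of 8 letters accepted, the shares were 55.1% for gained, 74.1% for shared and 64.6% for control-only GBR, against 6.11%, 7.11% and 6.10% in the displaced windows. Where the full consensus was present, its center lay a median of 17 bp from gained and 12 bp from shared summits. The AP-1 consensus occurred at 19.8% of gained, 18.4% of shared and 8.54% of control-only GBR, against 3.19%, 3.64% and 9.76% in the displaced windows. The ETS consensus CCGGAAG, searched on both strands, occurred at 2.05% of gained GBR, 1.90% of shared GBR and 0 of the 82 control-only GBR, with 0.708% and 0.687% beside gained and shared GBR. Variants of the ETS motif were not counted, since no looser search was run for it. The study's own motif search, in a wider window, found an ETS motif near the majority of GBR it classed as blocked by Hic-5. It found no significant enrichment near those not blocked. The exact matches counted here cannot be set against that result. A match describes the letters and does not show that a factor was bound.

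Gained GBR were mostly the weaker calls of the Hic-5 depleted list. The authors scored each GBR by the −log10 p-value of its enrichment over input and by an enrichment value, read here as the ratio to the expected signal that MACS2 writes in that column. The study's description of its peak tables calls it an average enrichment in CPM (read counts scaled to sequencing depth), so its scale is uncertain, and it is compared only within a list. Their −log10 p-value ranged from 12 to 147 for gained GBR with a median of 18.7, and the median of shared GBR in the same list was 54.7. The median of this fold enrichment was 6.69 for gained and 12.7 for shared GBR. The 192 strongest GBR of the list were all shared, and the first gained one, in SKI, stood at rank 193. With the list split by rank into 10 groups of equal size, the gained share was 5.24% in the strongest group, 33.1% in the next, 61.4% in the one after and 98.2% in the weakest.

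**Figure D1:**
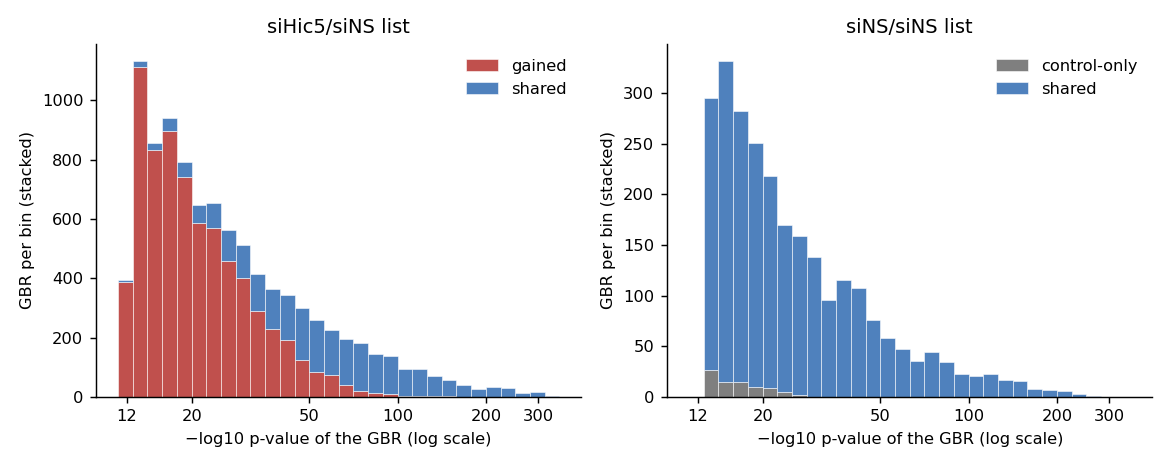
Number of GBR by −log10 p-value (horizontal axis, log scale), stacked, for the siHic5/siNS list (left, gained in red and shared in blue) and the siNS/siNS list (right, control-only in grey and shared in blue). Gained GBR fill the weak end of the left panel, with a median of 18.7 against 54.7 for shared GBR, and control-only GBR lie between 12.6 and 27.3 on the right.

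The size of the lists bears on these counts. When the siHic5/siNS list was cut to its strongest 2582 GBR, as many as in the control list, 761 of them (29.5%) were gained and 735 of the control GBR (28.5%) had no counterpart, of which 653 were overlapped by a weaker siHic5/siNS GBR that the cut removed. How far depth or enrichment of the libraries set the length of the lists was not tested. Counts with lists of equal length are therefore given beside the main counts for windows, runs, leading genes and gene lists below.

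Few sites lay near the edge of the overlap rule. The gained GBR closest to a control GBR was 86 bp away, and 52 gained GBR had one within 500 bp. The smallest overlap of a shared GBR was 211 bp. At shared sites the siHic5/siNS GBR was wider than its control partner in 2337 of 2474 cases (94.5%), with median widths of 647 and 441 bp. Their summits lay a median of 17 bp apart, and 87.9% were within 50 bp. The overlap rule itself brings these positions close.

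The 10 strongest gained GBR were spread over 9 chromosomes. The first lay in an intron of SKI, a repressor of TGF-β signalling, at chr1:2255004-2256421, with a −log10 p-value of 147 and a fold enrichment of 31.3. It was 1050 kb from the closest shared GBR. The next lay 68.6 kb from the TSS of MRPL14 on chromosome 6 (−log10 p-value 130) and in an intron of FGR, a Src-family kinase of myeloid cells (127).

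After these came a GBR 21.6 kb upstream of FNDC3A at chr13:48953973-48954638 and one 22.3 kb upstream of RHOB, which encodes a small GTPase, at chr2:20424254-20425176. Another, within ANKRD11, whose product is a chromatin regulator, lay at chr16:89316034-89316703 and was closest to the TSS of ZNF778. These 3 sites had a −log10 p-value of 114. Fold enrichment at these sites was 25.1, 20.4 and 22.7. The remaining sites of the 10 were nearest to UBE3A, TBC1D22A, STAC2 and TENM4, with −log10 p-values from 98.8 to 108.

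The UBE3A site, at chr15:25503976-25505085, stood alone: the closest shared GBR was 7631 kb away. UBE3A encodes a ubiquitin ligase. Of the 60 gained GBR among the 1000 strongest of the list, 7 were more than 1 Mb from every shared GBR. Among all gained GBR, 16.3% were that far away. All 10 strongest gained GBR were also called when BRM and Hic-5 were depleted together, against 16.7% of all gained GBR. In 4 of the 10, near MRPL14, UBE3A, TBC1D22A and TENM4, a GBR was also called in siCHD9/siNS cells, in which Hic-5 was not targeted. That list held 2.04% of all gained GBR.

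Gained GBR near TSSs were a small group. A summit lay within 1 kb of a protein-coding TSS for 330 of 7059 gained GBR (4.67%, 4.21 to 5.19%) and for 105 of 2474 shared GBR (4.24%, 3.52 to 5.11%). The odds ratio, gained over shared, was 1.11 (95% interval 0.884 to 1.39), and a 2-sided Fisher's exact test gave p = 0.401, so a difference was not detectable. Nor was one detectable with strength taken into account: the Mantel-Haenszel odds ratio over 10 strength groups was 0.984 (0.712 to 1.36). Introns held 44.6% of gained and 42.3% of shared GBR, and 50.6% and 52.7% lay outside protein-coding genes.

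The strongest gained promoter GBR lay at ARMC8, a subunit of the CTLH ubiquitin ligase complex, at chr3:138187981-138188580, with a −log10 p-value of 80.5 and its summit 0.951 kb downstream of the TSS. EDN3, which encodes the peptide endothelin 3, followed at chr20:59299623-59300638 with 72.9. The gained GBR at OLAH, a thioesterase of fatty acid synthesis, stood at 71.4 and 0.118 kb upstream of the TSS. These 3 promoters had no shared GBR within 50 kb. Most gained GBR had none either, since a shared summit lay within 50 kb of 25% of them.

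Of the 10 strongest promoter GBR, 6 more had −log10 p-values from 49.9 to 57.9. They lay at ERCC1 (nucleotide excision repair), MSI2 (an RNA-binding protein), SBK3, CRYAB (a small heat shock protein), PLEKHG2 (a guanine nucleotide exchange factor) and AP3S1 (an adaptor complex subunit). The PLEKHG2 summit was 0.894 kb from a shared one, and the distance at the SBK3 promoter was 4183 kb. Of these 9 promoter GBR, 7 were also called in siBRM/siHic5 cells, and none was called in siCHD9/siNS or siBRM/siNS cells. Over all gained GBR these shares were 16.7% and 2.46%.

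Gained GBR lay farther from shared GBR than shared GBR lay from each other. On chromosomes 1 to 22 and X, 700 of 7058 gained summits (9.92%, 9.24 to 10.6%) had a shared summit within 10 kb. Among shared summits, 459 of 2472 (18.6%, 17.1 to 20.1%) had another shared summit that close. The odds ratio was 0.483 (0.425 to 0.549), with p = 1.22e-27 by a 2-sided Fisher's exact test. Sites near each other are not independent, so this p-value is too small.

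The difference was seen at every distance examined, and it was smaller between sites of like strength. Within 2 kb the shares were 2.86% of gained and 5.99% of shared GBR, and within 100 kb they were 35.0% and 45.4%, with odds ratios of 0.463 and 0.648. Over 10 strength groups the Mantel-Haenszel odds ratio within 10 kb was 0.643 (0.535 to 0.772). Shared GBR in the strongest of these groups had a shared neighbor within 10 kb in 23.5% of cases, and the gained GBR of that group in 4 of 50 cases. In the weakest group, which held 17 shared GBR, the shares were 7.37% for gained and 5.88% for shared.

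The median distance from a gained summit to the nearest shared one was 220 kb, with quartiles of 49.9 and 655 kb, against 132 kb between shared summits. More than 1 Mb separated 1150 gained GBR (16.3%) from any shared GBR. The median distance from a gained summit to the next gained one was 53.6 kb. That value comes from a set of summits more numerous than the shared one and cannot be set against the other distances directly. Among the 761 strongest gained GBR, 57 (7.49%) had another within 10 kb, compared with 23.3% of all gained GBR.

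**Figure D2:**
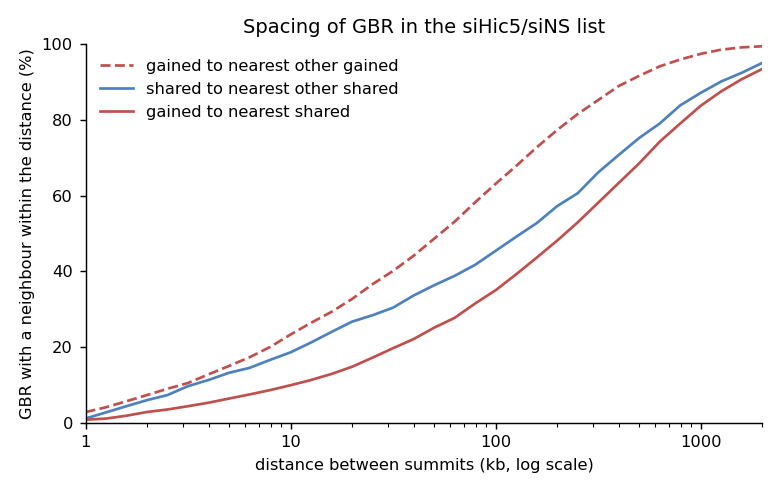
Cumulative share of GBR in the siHic5/siNS list (vertical axis, %) that had a neighbor within a given distance between summits (horizontal axis, kb, log scale). At 10 kb the curve from gained to shared GBR stands at 9.92%, that between shared GBR at 18.6%, and that between gained GBR, a set more numerous than the shared one, at 23.3%.

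Strength hardly changed with distance to shared GBR. The median −log10 p-value of gained GBR was 19.4 within 10 kb of a shared summit, 18.8 from 10 to 100 kb, 18.5 from 100 kb to 1 Mb and 18.5 beyond 1 Mb. Median fold enrichment lay between 6.66 and 6.77 in these 4 groups. GRE matches differed more: the full consensus was present at 9.57% (7.61 to 12%) of gained GBR within 10 kb of a shared summit, at 15.5% (14.5 to 16.6%) of those over 100 kb away and at 17.0% (14.9 to 19.2%) of those over 1 Mb away. The AP-1 consensus was at 19.4%, 19.6% and 21.7% in the same groups.

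Gained GBR occurred alone more often than in groups. When summits within 10 kb of the next were chained, 4952 gained GBR stood alone, 1365 formed 617 groups of gained GBR only, and 741 joined shared GBR in 562 mixed groups. The chain with most gained GBR held 7 within 24.8 kb, at chr14:77027967-77052729, reaching upstream from the TSS of IRF2BPL, a transcriptional regulator. Its −log10 p-values ran from 13.9 to 73.2, and 3 of the 7 were also called in siCHD9/siHic5 and siBRM/siHic5 cells. These lists held 9.45% and 16.7% of all gained GBR. No shared GBR lay within 50 kb of the IRF2BPL TSS, and 4 of its gained GBR were among the 761 strongest.

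A second chain of 6 gained GBR spanned 15.1 kb at chr17:71908920-71924050, about 205 kb upstream of SOX9, a transcription factor of cartilage differentiation. Its strongest member had a −log10 p-value of 96.0 and was the only one of the 6 called in any other list. The other 5 ranged from 12.1 to 42.9. Chains of 5 gained GBR with no shared GBR lay in CACNA1C, a calcium channel gene, across SLC12A3 near HERPUD1, across ACSF3 and CDH15, and at chr2:27705936-27725811, 52.0 kb from the TSS of SLC4A1AP.

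All chromosomes gained GBR, in similar proportion. The gained share ran from 68.3% (63.5 to 72.7%) on chromosome 20 and 69.5% (65.7 to 73.1%) on chromosome 5 to 79.6% (75 to 83.6%) on chromosome 4. These 3 intervals did not include the 74.0% of the whole list. The intervals of the other 20 chromosomes did. Chromosome 4 also had the lowest median −log10 p-value of all 23, at 19.7, and chromosome 20 the highest, at 25.1. The part of strength in these shares was not tested.

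**Figure D3:**
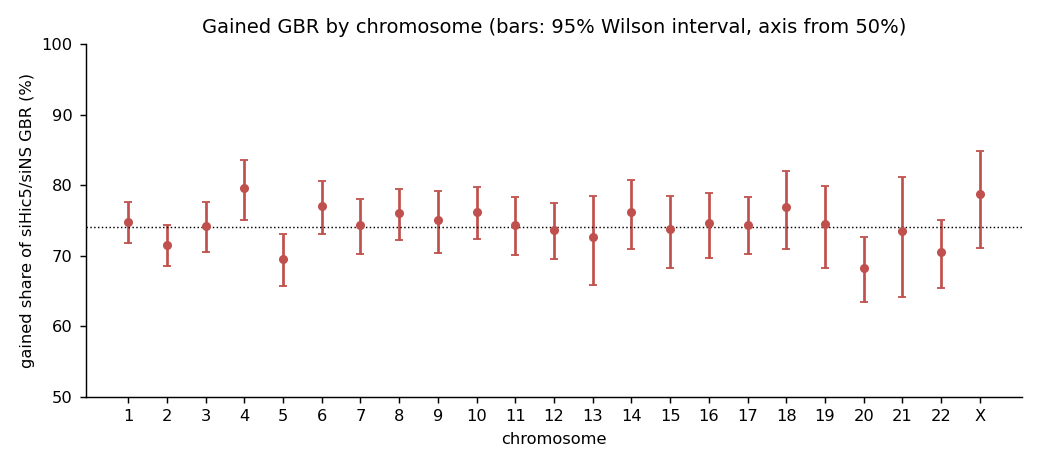
Share of siHic5/siNS GBR that were gained (vertical axis, %, drawn from 50%) on chromosomes 1 to 22 and X, with 95% Wilson intervals as bars and the 74.0% of the whole list as a dotted line. Chromosomes 4, 5 and 20 are the 3 whose bars miss the line.

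A part of the gain fell in windows of 1 Mb that had no shared GBR. Such windows arise wherever most sites of a list are gained, as 74.0% were here. Whether they were more frequent than that share alone gives was not tested. Of the 2194 windows of 1 Mb with at least 1 siHic5/siNS GBR, 980 (44.7%) held gained GBR only, 1088 held both kinds and 126 held shared GBR only. The gained-only windows contained 2222 gained GBR. A window held a median of 2 gained GBR, and 87 windows held 10 or more. Spearman's rank correlation between gained and shared counts per window was 0.4. With lists of equal length, 238 of 1243 windows (19.1%) were gained-only and held 282 of the 761 gained GBR, 665 windows held shared GBR only, and no window had more than 5 gained GBR.

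Windows with most gained GBR lay at chr20:50000001-51000000 and chr16:85000001-86000000, with 20 each. In the first, 10 were nearest to PTPN1, which encodes protein tyrosine phosphatase 1B, and 6 to CEBPB, a bZIP transcription factor. It also held 16 shared GBR. In the second, 9 were nearest to CIBAR2, 6 to GSE1 and 3 to IRF8, an interferon regulatory factor, beside 6 shared GBR. The 8 other leading windows held 16 to 19 gained GBR. At chr20:57000001-58000000, a window with BMP7, PMEPA1 and PCK1, there were 18 gained GBR and 1 shared GBR. These counts came mostly from weaker sites, as gained GBR did in general: lists of equal length kept 761 of all 7059. Between lists of equal length the PTPN1 window held 1 gained and 13 shared GBR, the IRF8 window 2 and 5, and the BMP7 window 1 of each. The 10 leading windows then had 1 to 3 gained GBR each.

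The gained-only window with the highest count, 15, was chr1:47000001-48000000. There 5 gained GBR were nearest to FOXD2, 5 to TRABD2B and 3 to TAL1, a transcription factor of blood cell development. The next, with 13, was chr1:116000001-117000000, where 5 were nearest to CD58, a ligand of the T cell surface protein CD2, and 3 to CD2 itself. Windows at chr18:58000001-59000000, with ALPK2 and NEDD4L, at chrX:45000001-46000000 and at chr5:16000001-17000000, with MYO10, held 12, 11 and 11. Of the 761 strongest gained GBR, the window at CD58 and CD2 held 4, that at FOXD2 and TRABD2B 1, and that at ALPK2 and NEDD4L 0. The windows on the X chromosome and at MYO10 held 1 each.

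Gained GBR also followed each other over long distances with no shared GBR between them. Such runs arise wherever most sites of a list are gained, as 74.0% were here. Whether the runs were longer than that share alone gives was not tested. There were 1758 such runs with a median length of 3, and 126 of them had 10 or more gained GBR. There were 516 runs with lists of equal length, their median length was 1, and the longest counted 7. The longest counted 32 over 16.9 Mb at chr11:44747276-61603574, which spans the centromere, and 4 of these were nearest to PTPRJ, a receptor tyrosine phosphatase. The second counted 27 over 27.8 Mb at chr4:128660126-156419279, with 2 nearest to NR3C2, the gene of the mineralocorticoid receptor. The densest of the 5 longest runs counted 24 over 6.55 Mb at chr1:33153129-39701454, where 5 were nearest to POU3F1, a POU-domain transcription factor.

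By nearest TSS, gained GBR were assigned to 4065 protein-coding genes, of which 2953 were assigned no shared GBR, and 183 genes were assigned 5 or more. SOX9 had the most, 18, with 3 shared GBR. Of the 18, 7 lay upstream and 11 downstream of its TSS, at 28.9 to 682 kb, and −log10 p-values ran from 12.1 to 96.0 with a median of 21.9. In 14 of the 18, no GBR was called in any of the other 4 lists. The same held for 79.3% of all gained GBR.

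ZFP36L1, an RNA-binding protein of mRNA decay, had 15 gained and 5 shared GBR. Of the gained ones, 13 lay downstream of its TSS, and the strongest (−log10 p-value 54.7) was in an intron of RAD51B. TRIB1, a pseudokinase that directs proteins to degradation, and CITED2, a coregulator that binds CBP and p300, had 12 gained GBR and 1 shared GBR each. All 12 at CITED2 lay upstream, and no other list held any of them. Over all gained GBR, 79.3% were in none of the other 4 lists. MED13L, a subunit of the Mediator kinase module, had 11.

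The transcription factor MYC and PTPN1 were assigned 10 gained and 7 shared GBR each, and the window of PTPN1 held 16 shared GBR in all. COL23A1, a transmembrane collagen, had 10 gained GBR, all inside the gene, and 1 shared GBR. SULF2, an extracellular heparan sulfate sulfatase, had 9 gained and 6 shared GBR.

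Other genes were assigned gained GBR only. DIPK2B on the X chromosome led with 10, all upstream at 272 to 588 kb, with −log10 p-values from 12.4 to 57.5. TMEM132C, QKI, an RNA-binding protein of splicing, and IRX1, a homeobox transcription factor, had 9 each. IRF2BPL and SMNDC1, a splicing factor, had 8 each. SEMA5A, an axon guidance gene, EXT1, a heparan sulfate polymerase, and MYO10, a myosin of filopodia, had 7 each, with 5, 6 and 6 of them inside the gene. KCNQ3, a potassium channel gene, had 6, of which the strongest had a −log10 p-value of 80.3.

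Most of these counts rested on weaker sites, as gained GBR did in general. The cut to lists of equal length kept 761 of all 7059 gained GBR, so most counts had to fall. Among the 761 strongest gained GBR, IRF2BPL kept 4, SOX9 3, and ZFP36L1, TRIB1, MYC, SULF2 and SEMA5A 2 each. CITED2, TMEM132C, QKI, EXT1 and MYO10 had none, and the other 7 genes had 1 each.

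**Figure D4:**
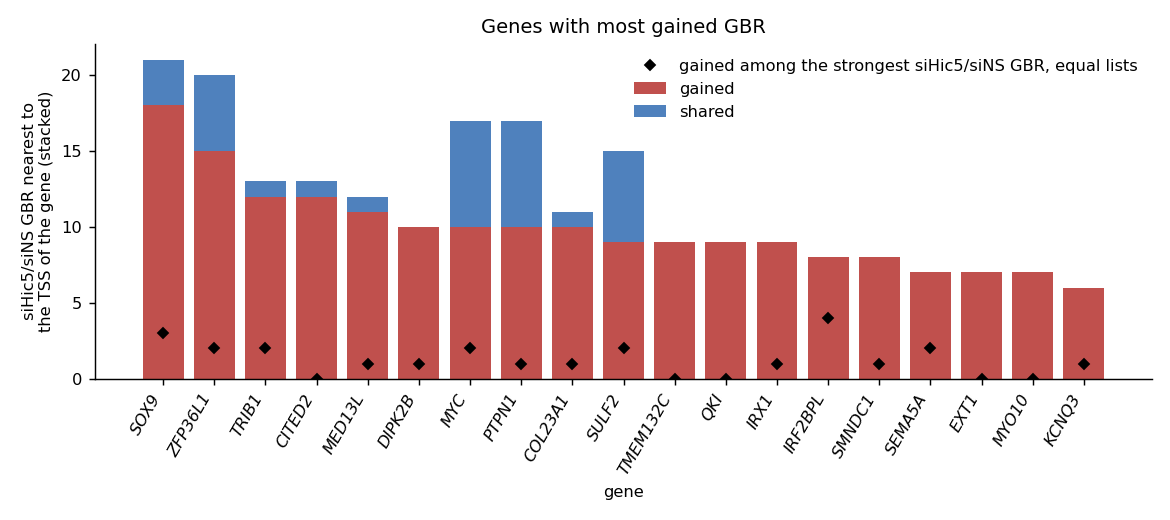
siHic5/siNS GBR assigned by nearest TSS (vertical axis, count, stacked) for the 19 genes with most gained GBR overall or with no shared GBR, gained in red and shared in blue. Black diamonds give the gained GBR among the 2582 strongest siHic5/siNS GBR: SOX9 falls from 18 to 3 and IRF2BPL from 8 to 4.

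Of 19970 protein-coding genes, 4582 (22.9%) had a gained GBR within 50 kb of the TSS and 3572 (17.9%) had a gained but no shared GBR there. Gene lists are described against these shares. A shared GBR lay within 50 kb of 1854 genes (9.28%). With lists of equal length, where 761 of the 2582 siHic5/siNS GBR were gained, 639 genes (3.20%) had a gained GBR and 1457 (7.30%) a shared one. In both settings the larger set of sites lay near more genes. The median gene had 0 gained GBR.

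Genes known as glucocorticoid targets had gained GBR most often among the 9 lists when all gained GBR were counted. Their lead depended on weak sites: at a −log10 q-value of at least 20 the share was 45.2%, against 13 of 26 focal adhesion genes and 12.7% of all genes. With lists of equal length it was 12.9%, against 19.2% and 3.20%. Of the 31 genes, 21 (67.7%) had a gained GBR within 50 kb, with a median of 1 per gene, but in 14 of the 21 it lay beside a shared GBR. Shared GBR were also frequent, at 20 of the 31 genes against 9.28% of all genes. Gained without shared GBR were found at 7 of 31 (22.6%), against 17.9% of all genes. These included TSC22D3, which encodes the anti-inflammatory protein GILZ, with a gained GBR 33.8 kb downstream of its TSS (−log10 p-value 46.2), and PCK1, the rate-limiting enzyme of gluconeogenesis, with 4 gained GBR, the strongest at 42.3. The zinc finger gene ZBTB16 had 3, up to 27.1, and CEBPD, a bZIP transcription factor, had 1 at 21.7. FKBP5, a chaperone of steroid receptors, had 2 gained beside 4 shared GBR, and no GBR of either kind lay within 50 kb of the TSS of SGK1, CDKN1C, LCN2 or TAT. SGK1 encodes a glucocorticoid-induced kinase.

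Among 26 focal adhesion genes, 16 (61.5%) had a gained GBR and 10 (38.5%) had no shared GBR beside it. Shared GBR were also more frequent here, at 7 of the 26 genes against 9.28% of all genes. The adapter BCAR1 had 2 gained GBR, the stronger in an untranslated exon part of the gene with a −log10 p-value of 55.6. The integrin subunits ITGB3, ITGB1 and ITGAV had 3, 5 and 2, with strongest values of 43.5, 34.5 and 30.9. PXN, which encodes paxillin, had 2 gained GBR and 1 shared GBR. TGFB1I1, the gene of Hic-5 itself, had no GBR within 50 kb in the siHic5/siNS list. Among the 761 strongest gained GBR, 5 of the 26 genes had one within 50 kb (19.2%), against 639 of all genes (3.20%).

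TGF-β signalling genes had gained GBR at 10 of 25 (40.0%), 6 without shared GBR, and 7 of the 25 had a shared GBR. SKI held the strongest gained GBR of all. At TGFB1, the ligand, the strongest of 3 lay 0.056 kb from the TSS (−log10 p-value 17.5). LTBP4, which binds latent TGF-β, and the receptor gene TGFBR2 had 2 each, up to 16.9. Of the 25 genes, 3 had a gained GBR with lists of equal length.

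ETS family genes had gained GBR at 11 of 27 (40.7%), 9 without shared GBR, and 4 of the 27 had a shared GBR. At a −log10 q-value of at least 20 there were 8 (29.6%), and with lists of equal length 1 (3.70%), near the 3.20% of all genes. The strongest was 0.705 kb from the TSS of the repressor ERF (−log10 p-value 42.9), followed by ELK1 (30.1), FEV (29.4) and ETS2 (27.1). Genes of blood lineages had them at 7 of 20 (35.0%), and none of these 7 had a shared GBR nearby. At the stricter q-value there were 2 (10.0%), below the 12.7% of all genes, and with lists of equal length 1 (5.0%). The 7 were led by FGR and the T cell kinase gene LCK (31.7), with TAL1 (21.2) and SPI1 (18.5), which is also in the ETS list. Whether GR binding at such genes changed their expression was not analysed here.

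The other lists had gained GBR at 15.0 to 26.3% of their genes, against the background of 22.9%. Remodelers and GR coregulators had gained GBR at 7 of 29 (24.1%). They included CHD9, the remodeler that the study also depleted, with 2 gained GBR, the stronger in its intron at 84.4, and the SWI/SNF subunit gene ARID1A (42.4). ARID1B (19.0) and CHD4 (16.0) followed. No GBR lay within 50 kb of the TSS of NR3C1, the gene of GR, or SMARCA2, the gene of BRM.

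Bone matrix and osteoblast genes had gained GBR at 5 of 19 (26.3%), led by TNFRSF11B, which encodes osteoprotegerin (25.7), and COL1A2 (21.2), with the transcription factors RUNX2 (15.7) and SP7 (14.8). Neuronal genes had them at 3 of 20 (15.0%), with NEUROD1 (19.4) and GRIN1 (14.8) lacking shared GBR. Housekeeping genes had them at 4 of 16 (25%), where RPLP0 (38.9) and RPL13A (16.4) lacked shared GBR. The gained GBR counted for RPLP0 lay in an intron of PXN and was counted for both genes. Gained GBR in lists of equal length lay near 2 remodeler or coregulator genes (6.90%), 2 housekeeping genes (12.5%) and none of the bone and neuronal genes.

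**Figure D5:**
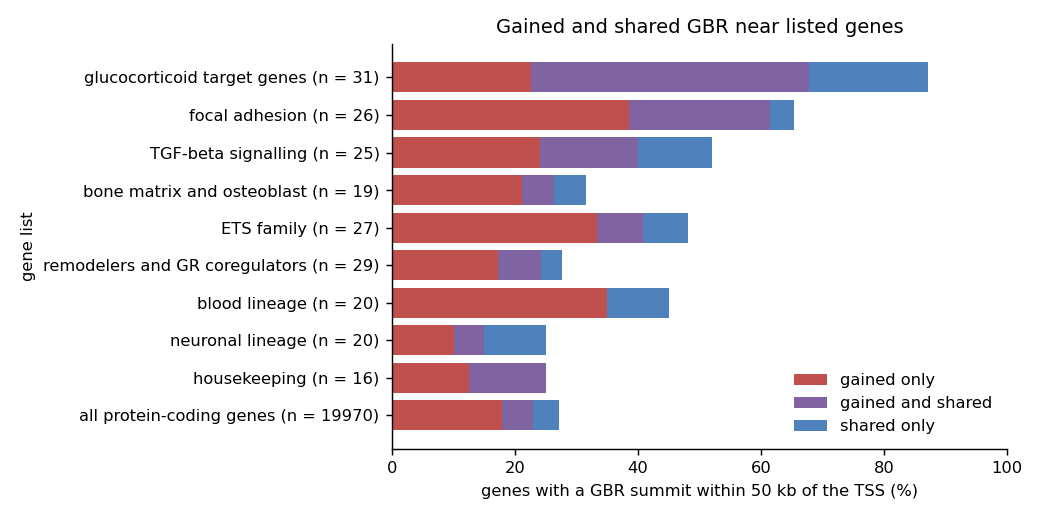
Share of genes with a GBR summit within 50 kb of the TSS (horizontal axis, %) for 9 gene lists and all protein-coding genes, split into gained only (red), gained and shared (purple) and shared only (blue). Glucocorticoid target genes (67.7%) and focal adhesion genes (61.5%) have gained GBR most often, against 22.9% of all genes. With lists of equal length these shares are 12.9%, 19.2% and 3.20%.

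Few gained GBR were called in cells that kept Hic-5 and lacked a remodeler. A siCHD9/siNS GBR overlapped 144 gained GBR (2.04%) and a siBRM/siNS GBR 37 (0.524%), in all 174 (2.46%, 2.13 to 2.85%). For shared GBR the same share was 61.9%. The rule set part of this contrast: shared GBR were by definition called in a list with Hic-5 present, and gained GBR were absent from it. The 174 had a median rank of 2407 in the siHic5/siNS list, and the other gained GBR one of 5968. Of the 100 strongest gained GBR, 23 were among the 174. With Hic-5 and a remodeler both depleted, 1182 gained GBR (16.7%) were called in siBRM/siHic5 and 667 (9.45%) in siCHD9/siHic5 cells. None of the 4 other lists held 5598 gained GBR (79.3%). Gained GBR were mostly weak calls, and how far strength and the length of the other lists set these shares was not tested.

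The 82 control-only GBR were weak calls of the control list. Their −log10 p-values ranged from 12.6 to 27.3 with a median of 15.7, while shared GBR of that list had a median of 21.7. None was among its 258 strongest GBR, and 73 (89.0%) ranked below the middle of the list. The strongest, at rank 914, lay at chr15:81878067-81878694, 167 kb from the TSS of MEX3B, an RNA-binding protein gene, with a fold enrichment of 9.30. It was also called in siBRM/siNS cells and in no Hic-5 depleted list.

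The next was in an intron of CFAP95 at chr9:69861010-69861452 (−log10 p-value 26.0) and was called in no other list. A GBR 37.8 kb upstream of KCND3, a potassium channel gene, at chr1:112027237-112027632 (23.7) was called in siCHD9/siHic5 and siBRM/siHic5 cells. The other 7 of the 10 strongest lay near TMX4, MED13L, PPM1D, CYP2J2, ZFPM2, NPR3 and PLD5P1, with −log10 p-values from 21.0 to 23.5. The one in an intron of MED13L lay in a gene that had 11 gained GBR assigned to it.

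Most control-only GBR had no GBR summit of Hic-5 depleted cells within 10 kb. For 19 of the 82 a siHic5/siNS summit lay within 10 kb, the median distance was 55.0 kb, and 1 GBR, in an intron of CNTNAP2, was more than 1 Mb from the next, at 3.14 Mb. Only 2 had a siHic5/siNS GBR within 500 bp. For comparison, 27.3% of shared summits had a gained summit within 10 kb, and their median distance to the nearest gained one was 37.2 kb. Of the 82, 12 were called in siBRM/siHic5 or siCHD9/siHic5 cells, in which Hic-5 was also depleted. A further 9 were called in siBRM/siNS or siCHD9/siNS cells only, and 61 in the control list alone.

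Below the middle rank of the control list, 15 of 73 control-only GBR (20.5%, 12.9 to 31.2%) were called in at least 1 of the 4 other lists, against 986 of 1218 shared GBR (81%, 78.7 to 83.1%). The rule set part of this contrast, since shared GBR were by definition called in a Hic-5 depleted list and control-only GBR were not. In siBRM/siHic5 and siCHD9/siHic5, also depleted of Hic-5, the shares were 9.59% and 4.11% for control-only GBR. For shared GBR they were 74.2% and 48.5%. In siBRM/siNS, where Hic-5 was not targeted, the shares were 8.22% (3.82 to 16.8%) for control-only and 16.8% (14.8 to 19.0%) for shared GBR. In siCHD9/siNS they were 5.48% (2.15 to 13.3%) and 23.3% (21 to 25.8%). Summits of 3 control-only GBR lay within 1 kb of a TSS, at LCN12, PROC, which encodes the anticoagulant protein C, and OGFOD2. These 3 were chosen after their values were seen and had −log10 p-values of 16.0, 15.2 and 12.8.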

How the data were processed

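GR ChIP-seq was represented by 12 ChIP and 6 input libraries of U2OS-GRα cells. The authors mapped single-end reads with BWA to GRCh38, called peaks with MACS2 on pooled replicates and kept those passing the IDR framework. Versions of these tools are not given in the sources used here. The deposited lists give each peak an enrichment value, taken here as the MACS2 fold enrichment (a ratio), although the authors describe it for their peak tables as CPM, and, from the authors' MACS2 run, the −log10 of the p-value and q-value. No column of per-sample values went unused.

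All chromosome names were in the reference, and 0 peaks passed the end of their sequence. Peaks overlapping by 1 bp were shared. TSSs were those of the canonical transcripts of 19970 protein-coding genes (GENCODE release 44). A few GBR on alternate contigs (3 in siHic5/siNS and 2 in siNS/siNS) were left out of spacing, windows and genes. Fisher's exact test (2-sided) was applied to gained against shared GBR, and shares have 95% Wilson intervals. The scripts were tested on simulated peaks. Sequences came from GRCh38. One of the 10 promoter GBR is not reported here.

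Members and gene lists were chosen with earlier results of these data known. Named were the 10 strongest gained, control-only and gained promoter GBR, the 10 genes and 10 windows of 1 Mb with most gained GBR and the 10 of each with most gained and no shared GBR, the 5 longest runs, and up to 4 genes per list with the strongest gained and no shared GBR within 50 kb. Chains of 10 kb, the single sites of leading genes and other genes of the lists were chosen after their values were seen. Alternatives were other overlap rules, q-value thresholds, lists of equal length, other distances and strength groups. Python 3.11.15, NumPy 2.4.6, pandas 2.3.3, SciPy 1.17.1, statsmodels 0.14.6 and Matplotlib 3.10.9 were used.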

Additional observations from a re-analysis of the deposited data

How the results depend on the processing

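Of the alternatives tried, those that shortened the lists changed the counts most. With a −log10 q-value of at least 20 in both lists there were 3449 gained and 23 control-only GBR, and, as an alternative chosen after seeing the data, 26 gained GBR were then called in siCHD9/siNS or siBRM/siNS cells. With lists of equal length there were 761 gained and 735 control-only GBR, and 639 genes had a gained GBR within 50 kb. Matching by summits within 200 bp gave 124 control-only GBR. A gained GBR lay within 10 kb of 1271 genes and within 100 kb of 7734. The promoter odds ratio turned below 1 at the stricter q-value (0.832), with equal lists (0.709) and over 10 strength groups (0.984), with p from 0.155 to 0.923. The odds ratio for a shared GBR within 10 kb stayed below 1 and past the threshold in all alternatives run, from 0.365 to 0.643. The other overlap, threshold and chromosome settings gave 7007 to 7075 gained GBR and, summit matching aside, 80 to 82 control-only GBR. Collapsing identical intervals changed nothing, since there were none. No paired analysis was possible because both replicates of a combination were pooled into 1 list, and for the same reason no replicate could be left out. The lists hold no read counts, so from them sites under the calling threshold of either list cannot be told from unbound ones. The study's own comparison of replicate signal was not used.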

Other observations

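A small set of gained GBR was called in both lists in which a remodeler was depleted and Hic-5 was not targeted. There were 7 of these, and all 7 were also called in siCHD9/siHic5 and siBRM/siHic5 cells, so siNS/siNS was the only list without them. They were nearest to STRIT1, PITPNC1, DKK1, SMOC1, ACKR3, GJD2 and SEMA5A, with −log10 p-values in the siHic5/siNS list of 65.9, 60.2, 52.4, 44.8, 29.4, 26.8 and 18.7. DKK1 encodes an inhibitor of Wnt signalling, and its GBR lay 227 kb from the TSS. The one at SMOC1, an extracellular matrix protein gene, lay in its intron 8.77 kb from the TSS. These sites were chosen after their values were seen.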
